A study of Mus musculus with 59 samples.

Results

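The effect of the expanded *Atxn1* allele was compared here between the striatum and the cortex of the same mice, in 16 of the 59 RNA-seq libraries of the series. The libraries were chosen by their labels. They come from 4 wildtype (WT) mice, named WT-70, WT-77, WT-220, and finally WT-221, and 4 Atxn1_154Q/2Q mice (154Q below), named 154Q-69, 154Q-71, 154Q-75, and finally 154Q-76, each with 1 striatal and 1 cortical library, so that each of the 4 groups of region and genotype has n = 4. All mice were 10 weeks old and C57BL/6 by their labels (C57BL/6J by the methods of the study). A 154Q mouse carries 1 knock-in allele of its own *Atxn1* with an expanded CAG repeat beside 1 allele of normal length, so the mutant protein is made wherever *Atxn1* is. The question was which genes the mutation moved alike in both forebrain regions, and which it moved more in 1 of them. Values by library are listed in the order just given, in CPM (read pairs counted on a gene, scaled to the TMM-adjusted size of the library), and a log2 change is always 154Q minus WT.

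Spinocerebellar ataxia type 1 is caused by expansion of the polyglutamine stretch of ATXN1, a nuclear protein that binds transcriptional repressors, among them Capicua (CIC) and the DNA-binding factor RFX1. The cerebellum and brainstem are the regions best known to degenerate, but ATXN1 is expressed through the brain, and cognitive signs point to the forebrain. The cortex is made up mainly of glutamatergic excitatory neurons with a minority of GABA interneurons. The striatum is made up mainly of GABA-releasing spiny projection neurons, which carry dopamine receptors and rely on cyclic AMP signalling.

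Each library held between 33030415 and 54719126 read pairs counted on genes, and 19157 genes passed the filter on low counts. *Atxn1* itself (ENSMUSG00000046876, chromosome 13 from 45549755 to 45965008 of GRCm38) lay between 44.2 and 64.0 CPM in all 16 libraries and passed the test in neither region, with log2 changes of 0.03 (striatum) and 0.14 (cortex). The counts per gene do not show the repeat. Markers of the dissected region set the striatal libraries apart from each other. The 14 markers of cortical excitatory neurons, which the striatum lacks, were at a median of 64.3% to 88.2% of their WT cortical level in 7 of the 8 striatal libraries and at 29.1% in the striatal library of WT-220. *Slc17a7*, the vesicular glutamate transporter of these neurons, read 1388, 1411, 470.1, and 1499.6 CPM in the WT striata, 1063, 1170.5, 1031, and 1014 in the 154Q striata, and 1505 to 1751 in the WT cortices. The 23 markers of spiny projection neurons were at a median of 14.1 times their WT cortical level in WT-220, 5.64 to 7.24 times in the other WT striata, and 2.35 to 4.08 times in the 154Q striata. Thus all striatal libraries but WT-220 held transcripts of cortical neurons near the cortical level, and the 154Q striata held the fewest transcripts of spiny projection neurons. The main counts and the spiny neuron genes are therefore given with and without it. List counts are from all 16 libraries unless said, and many were higher without WT-220, as given below.

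**Figure D1:**
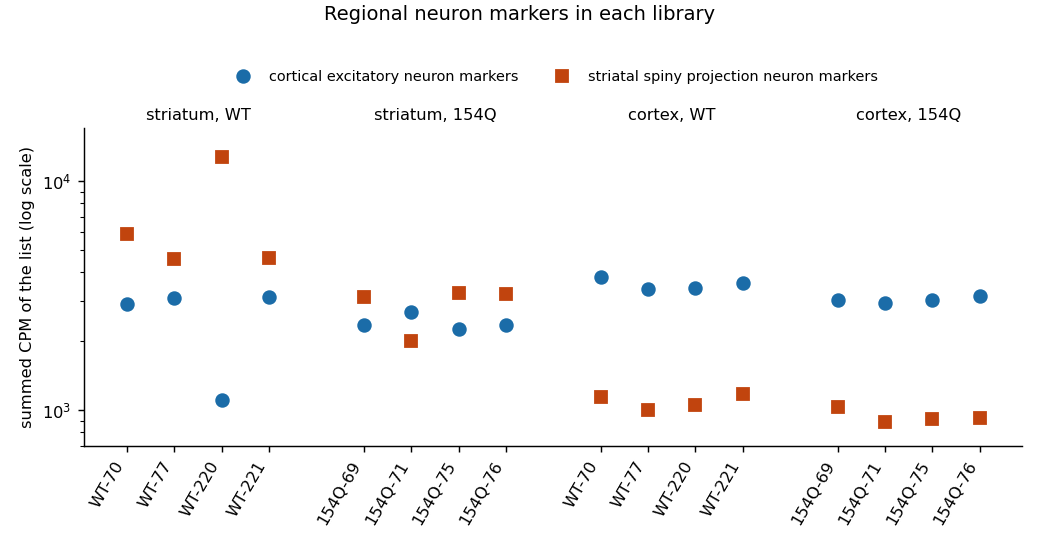
Summed CPM (log scale) of 14 cortical excitatory neuron markers (circles) and 23 striatal spiny projection neuron markers (squares) in each of the 16 libraries, named by mouse. The striatal library of WT-220 has the highest sum of spiny neuron markers, 12765 CPM, and the lowest sum of cortical markers, 1106 CPM.

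Further checks concern the cortical libraries. The library labelled cortical WT-221 read 470.1 CPM of *Xist* and 0.897 CPM of *Ddx3y*, which mark female and male tissue, while the striatal library of that mouse read 5.86 and 71.5 CPM. The files of the cortical libraries labelled 154Q-76 and 154Q-AXH-207 (a mouse of a genotype not compared here) carry each other's mouse names. Both doubtful libraries, cortical WT-221 and 154Q-76, were kept under their labels, and counts without them are given below. *Ttr*, a transcript of the choroid plexus, ranged from 26.4 to 2275 CPM with no order by genotype.

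In the 16-library fit, 2624 genes passed the test in the striatum (13.7% of the genes tested), of which 1133 rose (5.91%) and 1491 fell (7.78%). In the cortex 754 genes passed (3.94%), of which 240 rose (1.25%) and 514 fell (2.68%). Averaged over the regions, 4103 genes passed (21.4%), of which 1978 rose (10.3%) and 2125 fell (11.1%). The average treats both libraries of a mouse as independent, and 2898 genes passed it in limma-voom with the mouse as a block, 2896 of them among the 4103. These calls are at an adjusted p value under 0.05 from the quasi-likelihood test of edgeR with Benjamini-Hochberg adjustment, as are all calls below unless another test is named. The larger striatal count does not show a larger effect. The median SD of log2 CPM among replicates was 0.199 (striatum) and 0.148 (cortex), and the joint fit gives both regions a common spread. When each region was fitted alone, the order turned, with 973 genes in the striatum (5.33%) and 1495 in the cortex (8.19%). It turned back when WT-220 was left out of the striatal fit, where 2236 genes passed. In the joint fit without WT-220 from the striatum, 2648 genes passed in the striatum (13.7%) and 1827 in the cortex (9.43%).

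Of the genes tested, 603 passed in both regions (3.15%), and all 603 changed in the same direction, 188 upward (0.981%) and 415 downward (2.17%). The libraries of both regions come from the same 8 mice, so they are not independent samples of animals. Of the 603 genes, 429 also passed in both regions when each region was fitted alone, where 529 passed in both. Without striatal WT-220, 587 of the 603 also passed in both, and 1361 genes passed in both (7.02%). The striatal groups left then differ in cortical markers. The summed cortical excitatory markers were 2913 to 3117 CPM in these WT striata and 2256 to 2695 CPM in the 154Q striata. Of the 14 markers, 1 fell in the striatum with WT-220 and 6 fell without it. The part of this difference in the larger count was not tested. Without the doubtful cortical libraries 303 genes passed in both, 296 of them among the 603. In each of these fits every gene called in both regions had the same sign in both. The signs were alike beyond the shared calls too. Of the 2021 genes called in the striatum alone, 1902 (94.1%) had the same sign in the cortex, and of the 151 called in the cortex alone, 146 (96.7%) had the same sign in the striatum, against 71.8% of all genes tested. Across all 19157 genes the log2 changes in the 2 regions had a Pearson r of 0.577 and a Spearman rho of 0.544, and across the 10229 genes with a mean of at least 10 CPM these were 0.751 and 0.725. The points share the mice and, as the markers above show, the striatal libraries hold cortical transcripts. The part of the agreement that comes from cortical tissue in the striatal libraries was not tested.

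**Figure D2:**
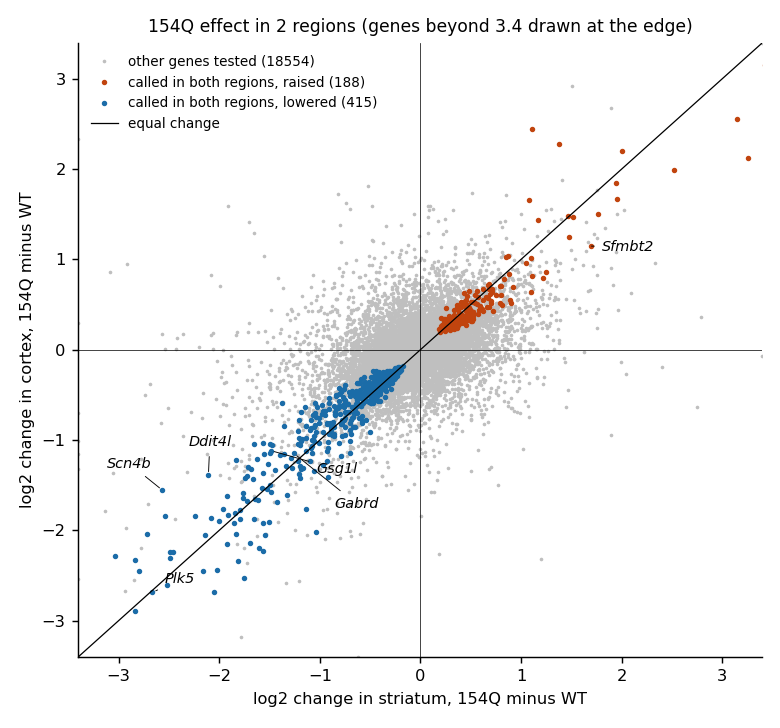
Log2 change (154Q minus WT) of each of 19157 genes in the striatum (x axis) and the cortex (y axis), with the 188 genes raised and 415 lowered in both regions in color and a line of equal change. No gene called in both regions lies in a quadrant of opposite signs.

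The 603 shared genes had a median absolute log2 change of 0.58 (striatum) and 0.52 (cortex), and 382 of them (63.3%) had the larger change in the striatum. Over all genes tested 11726 (61.2%) did, near the share of the shared genes. Among the 529 genes called in both regions when each was fitted alone the share was 81.9%. Without WT-220 it was 73.4% among the 1361 shared genes, against 58.2% of all genes tested. Called genes enter these counts through the same changes, so the shares describe the genes and are not tests. The test of the difference is the interaction of genotype and region. No gene of the 19157 passed it (lowest Benjamini-Hochberg adjusted p = 0.934, edgeR). An unadjusted p value under 0.05 was found for 840 genes (4.38%), of which 661 had the larger absolute change in the striatum and 179 in the cortex. DESeq2 called 6 genes, which are described below. A miss does not show equal effects. The 95% interval of the regional difference had a median half-width of 0.38 on the log2 scale before any adjustment for the number of genes, and no difference of any size passed the adjusted test in this fit. For 361 of the 603 shared genes the interval lay within 0.5 log2 units of 0, for 523 within 1, and 34 of the 603 had an unadjusted interaction p value under 0.05.

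The genes that fell in both regions were led by *Plk5* (ENSMUSG00000035486, chromosome 10 from 80356459 to 80365489), a brain-expressed member of the polo-like kinase family. *Plk5* read 29.7, 21.3, 24.6, and 19.98 CPM in the WT striata against 3.94, 3.603, 3.24, and 4.39 in the 154Q striata, and 23.6, 16.1, 12.6, and 16.02 CPM in the WT cortices against 2.89, 2.66, 2.85, and 2.18 in the 154Q cortices. The 154Q libraries lay far below the WT libraries in both regions, with log2 changes of -2.66 ± 0.18 (SE) in the striatum and -2.69 ± 0.19 in the cortex (edgeR adjusted p = 2.95e-07 and 1.87e-06). The difference between the regional changes, cortex minus striatum here and below, was -0.02 (95% interval -0.57 to 0.52). *Ddit4l* (ENSMUSG00000046818, chromosome 3 from 137621612 to 137628333) encodes an inhibitor of mTOR signalling. *Ddit4l* read 28.5, 29.4, 26.3, and 24.9 CPM in the WT striata against 6.48, 7.23, 5.68, and 5.88 in the 154Q striata, and 28.4, 23.7, 29.8, and 28.2 CPM in the WT cortices against 8.602, 10.7, 10.6, and 12.003 in the 154Q cortices. It fell in both regions, with log2 changes of -2.11 ± 0.11 (SE) in the striatum and -1.39 ± 0.10 in the cortex (edgeR adjusted p = 1.28e-08 and 2.2e-06). Its regional difference was 0.72 (95% interval 0.41 to 1.03), a larger fall in the striatum, which did not pass in edgeR (interaction adjusted p = 0.934) and passed in DESeq2 (DESeq2 adjusted p = 0.0411). *Gsg1l* (ENSMUSG00000046182, chromosome 7 from 125878420 to 126082411), an auxiliary subunit of AMPA receptors, read 136 to 166 CPM in WT and 47.5 to 56.1 in 154Q striata, and 93.3 to 115 and 41.98 to 51.5 in the cortices (log2 change -1.49 (striatum) and -1.12 (cortex)).

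Genes of energy metabolism were among the 10 named lowered genes. *Gpd1*, the cytosolic enzyme of the glycerol phosphate shuttle, read 80.4, 81.9, 77.5, and 79.9 CPM in the WT and 37.9, 34.9, 36.2, and 35.95 in the 154Q striata. Its cortical values were 66.6 to 81.6 CPM in WT and 33.1 to 42.9 in 154Q. The log2 changes of *Gpd1* were -1.14 (striatum) and -0.98 (cortex), with a regional difference of 0.16 (95% interval -0.07 to 0.39). *Pdp1*, the phosphatase that activates pyruvate dehydrogenase, changed by -1.18 (striatum) and -0.99 (cortex), and its highest 154Q library (94.5 CPM in the striatum, 108 in the cortex) lay below its lowest WT library (179 and 164).

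*Hrh3*, the presynaptic histamine receptor that restrains transmitter release, read 81.4 to 119.7 CPM in WT and 28.3 to 30.2 in 154Q striata and changed by -1.74 (striatum) and -1.41 (cortex). *Gabrd*, the delta subunit of extrasynaptic GABA-A receptors, read 86.5, 71.9, 69.7, and 78.2 CPM in the WT and 29.6, 33.8, 33.6, and 41.1 in the 154Q cortices and changed by -1.26 (striatum) and -1.15 (cortex). The kinase gene *Hipk4* changed by -1.19 and -1.01, where a pair of log2 changes gives the striatum first and the cortex second here and below, the immediate early response relative *Ier5l* by -1.68 and -1.32, and the myosin heavy chain gene *Myh7* by -1.66 and -1.87. Values of *Myh7* are uncertain, since 13.1% of its exon length overlaps another gene and the close paralog *Myh6* lies beside it. For each of these 10 genes the 4 154Q libraries lay below the 4 WT libraries in both regions, which was a condition of naming them. This was so for 3.2% of all genes tested in both regions, for 8.43% in the striatum, and for 7.87% in the cortex.

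The raised genes were headed, by the larger of the regional p values, by *Sfmbt2* (ENSMUSG00000061186, chromosome 2 from 10370510 to 10595253), a Polycomb group gene. *Sfmbt2* read 1.98, 2.08, 1.96, and 2.18 CPM in the WT striata against 7.81, 5.45, 6.43, and 6.98 in the 154Q striata, and 2.36, 2.58, 3.27, and 3.03 CPM in the WT cortices against 6.197, 6.19, 6.92, and 5.73 in the 154Q cortices. The groups did not overlap in either region, and the log2 changes were 1.70 ± 0.13 (SE) and 1.15 ± 0.13 (edgeR adjusted p = 1.41e-06 and 0.000139). *Slc6a15*, a neuronal transporter of neutral amino acids, read 51.6 to 56.1 CPM in WT and 83.02 to 90.9 in 154Q striata and changed by 0.67 (striatum) and 0.57 (cortex). *Asl*, the argininosuccinate lyase of arginine synthesis, changed by 0.68 and 0.67, and *Rimklb*, which makes the neuronal dipeptide N-acetylaspartylglutamate, by 0.62 and 0.55. *Psme1*, a subunit of the proteasome activator PA28, changed by 0.57 and 0.50. *Pnck*, a calmodulin-dependent kinase, changed by 0.80 and 0.70, and the protocadherin *Pcdh11x* by 0.66 and 0.59. For each of the 10 raised genes the 4 154Q libraries lay above the 4 WT libraries in both regions, as they did for 3.12% of all genes in both regions, 8.44% in the striatum, and 6.66% in the cortex. The other named raised genes were the axonemal dynein gene *Dnah14* (1.52 and 1.47), *1110002J07Rik* (1.94 and 1.85), and *A930017M01Rik* (0.70 and 0.51). All 20 named genes passed in both regions in each of the 30 alternative fits that tested both regions.

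**Figure D3:**
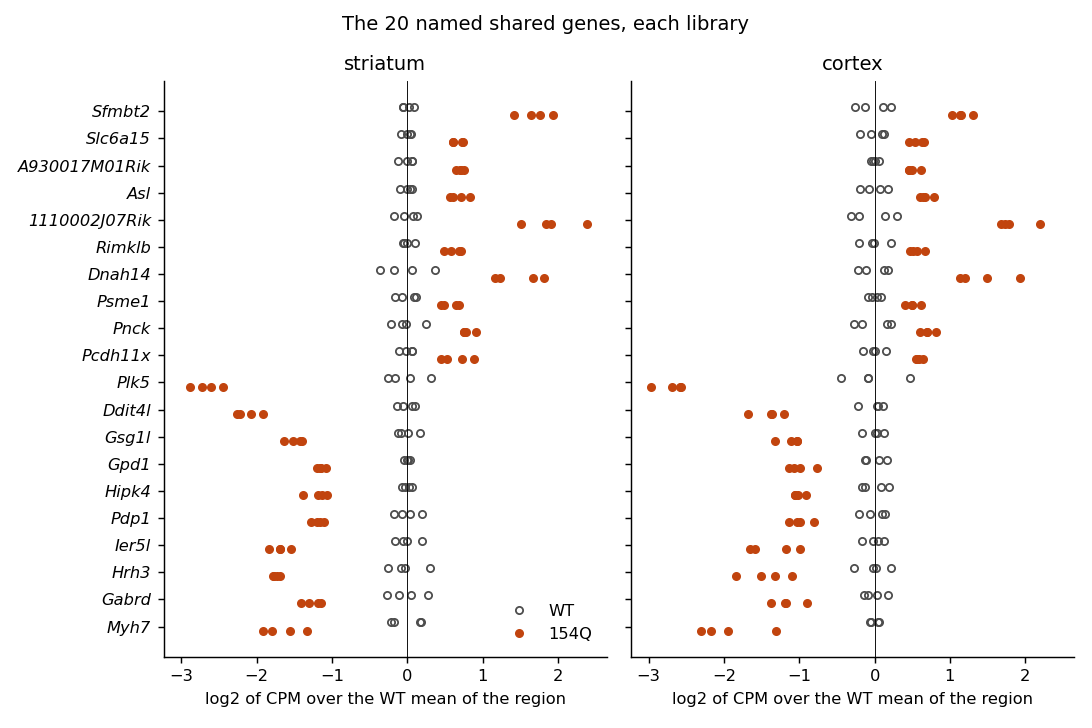
CPM of the 20 named shared genes relative to the WT mean of the region (log2 scale), striatum on the left and cortex on the right, 1 point per library. In every row the 4 154Q points (filled) lie outside the range of the 4 WT points (open) in both panels, as the naming rule required.

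Promoters of the named genes were read from RefSeq (GRCm38.p6), as windows of 300 bases with 250 before and 50 from the gene start on, to look for the letters of factors tied to ATXN1 or to neuronal activity. Of the 95 named genes, 69 had at least 1 such window that was searched, with 88 windows in all, and 3 windows held a motif. The searched letters were the CIC octamers TGAATGAA and TGAATGGA, the half-site GTTGCCA of RFX factors, and the cyclic AMP response element TGACGTCA, on both strands. The 3 windows are shown because they are the ones with a match, which stands in capitals. They lie at chr16:23890795-23891094 (minus strand) for *Sst*, chr11:113619077-113619376 (plus strand) for *Sstr2*, and chr2:136057498-136057797 (plus strand) for *Lamp5*, and each is written 5′ to 3′ on the gene's strand.
Sst: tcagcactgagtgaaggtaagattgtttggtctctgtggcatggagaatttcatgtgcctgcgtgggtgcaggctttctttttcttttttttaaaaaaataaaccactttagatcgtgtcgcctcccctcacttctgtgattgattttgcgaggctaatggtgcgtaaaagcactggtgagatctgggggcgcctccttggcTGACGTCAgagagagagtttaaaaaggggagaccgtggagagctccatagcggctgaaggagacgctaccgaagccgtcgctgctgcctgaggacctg
Sstr2: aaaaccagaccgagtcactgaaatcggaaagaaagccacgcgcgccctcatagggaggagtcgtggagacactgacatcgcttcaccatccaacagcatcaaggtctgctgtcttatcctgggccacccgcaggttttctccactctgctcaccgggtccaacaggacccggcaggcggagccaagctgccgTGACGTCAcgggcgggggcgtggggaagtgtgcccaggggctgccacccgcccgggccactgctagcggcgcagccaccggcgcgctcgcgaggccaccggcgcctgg
Lamp5: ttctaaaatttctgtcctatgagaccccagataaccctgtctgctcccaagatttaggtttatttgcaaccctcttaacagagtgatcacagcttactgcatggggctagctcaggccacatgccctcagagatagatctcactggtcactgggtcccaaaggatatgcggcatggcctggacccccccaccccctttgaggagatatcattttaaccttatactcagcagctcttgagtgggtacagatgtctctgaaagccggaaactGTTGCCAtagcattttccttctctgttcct
The cyclic AMP response element began 48 bases before the start of *Sst*, which encodes somatostatin, and 58 bases before that of its receptor gene *Sstr2*. The RFX half-site began 20 bases after a start of *Lamp5*, a membrane protein of cortical neurons. RefSeq gives *Lamp5* another start upstream, whose window (chr2:136052089-136052388) held no motif. *Sst* read 172, 189, 266, and 226 CPM in the WT striata against 119.98, 108, 109, and 116 in the 154Q striata, and 188, 194, 200.2, and 209.7 CPM in the WT cortices against 133, 125, 136, and 154 in the 154Q cortices. *Sst* fell in both regions, with log2 changes of -0.91 ± 0.10 (SE) in the striatum and -0.53 ± 0.10 in the cortex (edgeR adjusted p = 5.21e-05 and 0.00751). *Sstr2* changed by -0.93 (striatum) and -0.82 (cortex), and its striatal WT-220 library (16.4 CPM) lay within the range of the 154Q striata (12.9 to 16.6 CPM). *Lamp5* changed by -1.09 (striatum) and -1.23 (cortex). The shares over all shared genes were not tested. A CIC octamer stood in 1.74% of 403 windows of shared lowered genes and 1.05% of 191 windows of shared raised genes, against 1.72% of the 16676 windows of genes tested and 2.47% of all 32851 windows. The RFX half-site stood in 3.47% and 4.71%, against 4.02% and 4.38%, and the cyclic AMP response element in 1.99% and 3.66%, against 2.68% and 1.79%. A match is a run of letters and not a bound site.

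The 23 lists of genes by function were described by the number of members called in both regions, beside the 3.15% of all genes tested. Over all genes, 7.78% fell in the striatum and 2.68% in the cortex. The median log2 change is given too, which over all genes was -0.00415 (striatum) and 0.0102 (cortex). The lists were chosen with earlier results of these data known, so these shares and medians describe the lists and are not tests. In 15 lists both medians were below 0, in 3 both were above, and in 5 the signs differed. In these 5 the striatal median was above 0 and the cortical median below 0. Without striatal WT-220 the striatal median of each of the 5 was below 0 too, from -0.0728 (axon guidance) to -0.000264 (synaptic adhesion). Without striatal WT-220 more members were called in both for most lists, as over all genes (7.02%). The numbers were then 18 of 64 potassium channel, 15 of 47 presynaptic, and 12 of 68 axon guidance genes. They were 18 of 38 neuropeptide, 19 of 44 calcium-binding, 17 of 61 G protein, and 10 of 22 growth-associated list members. The lists of oxidative phosphorylation, interferon-stimulated genes, and ATXN1 partners stayed at 0. Activity-induced immediate early genes had the lowest medians of the 23 lists, -0.49 (striatum) and -0.47 (cortex). Of 29 tested, 7 fell in both regions (24.1%) and none rose, 14 fell in the striatum, and 7 in the cortex. Without striatal WT-220 these counts were 10, 13, and 12. *Homer1*, a postsynaptic scaffold gene with an activity-induced short form, read 219, 241, 226, and 290.3 CPM in the WT and 118, 131, 127, and 136 in the 154Q striata, and 217.1 to 286 and 129 to 143 CPM in the WT and 154Q cortices. Its log2 changes were -0.93 (striatum) and -0.81 (cortex), with a regional difference of 0.12 (95% interval -0.15 to 0.40). The transcription factor *Egr3* changed by -0.94 and -0.68, and *Nptx2*, a secreted pentraxin that clusters AMPA receptors, by -0.76 and -0.78. The clock gene *Per1*, which activity also induces, changed by -0.64 and -0.53. The response gene *Ier5* changed by -0.76 and -0.61. The remaining members called in both were *Arc* (-1.004 and -1.03), a regulator of AMPA receptor uptake, and *Fosl2* (-0.74 and -0.86), a partner of JUN in AP-1.

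The list of circadian clock genes had medians of -0.35 and -0.32. Of 22 tested, 6 fell in both (27.3%), 12 fell in the striatum, 6 fell in the cortex, and none rose. *Ciart*, a repressor within the clock, read 18.6 to 30.97 CPM in WT and 8.48 to 10.7 in 154Q striata and changed by -1.21 (striatum) and -0.78 (cortex). The activator *Tef* changed by -0.46 and -0.37, *Npas2* by -0.41 and -0.29, and the repressor *Bhlhe40* by -0.74 and -0.70. *Per1* is on this list and on that of activity-induced genes. The time of day at which the mice were killed is not given in the sources used here, and its part was not tested.

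Of 44 calcium-binding proteins and calmodulin kinases, 7 fell and 1 (*Pnck*) rose in both regions (18.2%), with medians of -0.32 and -0.27. *Itpka*, a kinase of inositol trisphosphate in dendritic spines, read 224, 206, 220.2, and 249 CPM in the WT and 95.6, 91.8, 89.9, and 110.2 in the 154Q striata and changed by -1.21 (striatum) and -0.90 (cortex). *Cabp7* changed by -1.22 and -1.23, the calmodulin kinases *Camk4* and *Camkk2* by -0.47 and -0.37 and by -0.71 and -0.69, and *Ppp3r1*, the regulatory subunit of calcineurin, by -0.39 and -0.32. Of 38 neuropeptides and receptors, 6 fell in both (15.8%), with medians of -0.33 in each region. Besides *Sst* and *Sstr2*, these included *Npy* (-0.73 and -0.69), the opioid peptide gene *Pdyn* (-0.92 and -1.02), and *Vgf*, a secreted growth-factor-inducible peptide precursor (-0.55 and -0.35).

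Among receptors and channels, 6 of 43 glutamate receptor genes fell in both regions (14.0%), with medians of -0.18 and -0.12. *Grm4*, a presynaptic metabotropic receptor, changed by -1.04 (striatum) and -0.91 (cortex), and *Grm3* and the auxiliary kainate receptor subunit *Neto2* by -0.42 and -0.45 and by -0.84 and -0.52. Of 64 potassium channel genes 6 fell in both (9.38%), among them *Kcnip3* (-0.59 and -0.62), a calcium-sensing subunit of A-type channels, *Kcnh3* (-0.64 and -0.48), and *Kcnc1* (-0.43 and -0.55), which supports fast firing. Of 61 genes of G protein and cyclic nucleotide signalling 6 fell in both (9.84%), among them *Rgs4*, which shortens G protein signals. *Rgs4* read 752, 781, 776, and 733 CPM in the WT and 382, 339.5, 393, and 427 in the 154Q striata, and 605, 498, 516, and 607 and 349, 339, 373, and 395 in the cortices, with changes of -0.98 (striatum) and -0.61 (cortex). Of 24 genes of GABA and glycine transmission, *Gabrd* and *Gad1* (-0.35 and -0.53), a main enzyme of GABA synthesis, fell in both (8.33%). The striatal call of *Gad1* was lost without WT-220, where its change was -0.24 (edgeR adjusted p = 0.0732).

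Genes repressed by CIC or induced by MAPK signalling numbered 17, of which 3 fell in both regions (17.6%) and none rose, with medians of -0.27 and -0.14. These were *Dusp6* (-0.50 and -0.55), a phosphatase that ends ERK signalling, the transcription factor *Etv5* (-0.43 and -0.36), and the Ras pathway inhibitor *Spred1* (-0.40 and -0.30). *Etv5* read 96.8 to 124 CPM in WT and 73.5 to 87.7 in 154Q striata, and 112 to 135 and 89.8 to 100.01 in the cortices. In the cortex 7 of the 17 fell and in the striatum 4. Of the 12 genes for ATXN1 itself, its paralog, and its partner factors, none passed in both regions. Of 31 genes of sterol and fatty acid synthesis 6 fell in both (19.4%) by small amounts, with medians of -0.13 and -0.10. When each region was fitted alone 3 of the 31 passed in both, and without striatal WT-220 8 did. *Mvd*, an enzyme of the mevalonate pathway, changed by -0.47 and -0.31 and *Hmgcs1*, which feeds that pathway, by -0.34 and -0.34. Of 74 nuclear-encoded subunits of oxidative phosphorylation none passed in both regions, and of 34 interferon-stimulated genes none did.

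Other lists hold secreted, presynaptic, guidance, matrix, and stress genes. Of 51 growth factors and receptors 5 fell in both (9.80%), among them *Igfbp4*, which binds insulin-like growth factors (-1.01 and -0.82), and *Fgf11* (-0.65 and -0.67). *Igfbp4* read 75.5, 119, 80.2, and 107 CPM in the WT and 45.2, 55.3, 42.5, and 46.1 in the 154Q striata, and 91.6 to 118 and 49.8 to 68.6 in the cortices. Of 47 presynaptic genes 3 fell in both (6.38%), with *Cplx3*, a complexin that clamps vesicle fusion, at -0.97 and -0.91. Of 68 axon guidance genes 3 fell in both (4.41%), with *Sema7a*, a membrane-anchored semaphorin, at -0.80 and -0.71 and *Lingo3* at -0.98 and -0.71. In the striatum 10 of these 68 rose and 11 fell, and without WT-220 7 rose and 15 fell. Of 41 matrix and perineuronal net genes 2 fell in both (4.88%), among them *Hapln1*, which links hyaluronan to proteoglycans (-0.57 and -0.58). Of 48 chaperones and stress genes 3 fell in both (6.25%), and the largest, *Hspa1b* (-1.56 and -1.16), is uncertain because its reads are shared with the near-identical *Hspa1a*. Of 15 voltage-gated calcium channel genes, *Cacnb1* fell in both (-0.44 and -0.24), and of 28 genes of glycolysis and the glycerol phosphate shuttle *Gpd1* and *Pdk4* did (-0.29 and -0.32 for *Pdk4*).

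Of the 23 lists, 4 held a gene raised in both regions and 18 a gene lowered in both. Growth-associated and cytoskeletal proteins had 2 of 22 (9.09%). *Dpysl3*, a collapsin response protein of growing axons, read 34.7, 29.2, 32.3, and 33.8 CPM in the WT and 48.1, 55.2, 66.8, and 48.3 in the 154Q striata and changed by 0.75 (striatum) and 0.61 (cortex), and *Marcks*, an actin-regulating substrate of protein kinase C, changed by 0.46 and 0.55. Synaptic adhesion proteins had *Pcdh11x* and *Cdh7* (0.23 and 0.32) of 49 (4.08%), and the pacemaker channel gene *Hcn3* changed by 0.52 and 0.42. The sodium and HCN channel list had medians of opposite sign, 0.17 (striatum) and -0.15 (cortex), and the striatal median was -0.02 without WT-220. Of the shared list members named in the text, *Aqp4*, *Bhlhe40*, *Cdh7*, *Fgf11*, *Gad1*, *Hmgcs1*, *Kcnc1*, *Marcks*, *Pdk4*, and *Pdyn* did not pass in the striatum when it was fitted alone (edgeR adjusted p from 0.0523 for *Bhlhe40* to 0.141 for *Gad1*).

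**Figure D4:**
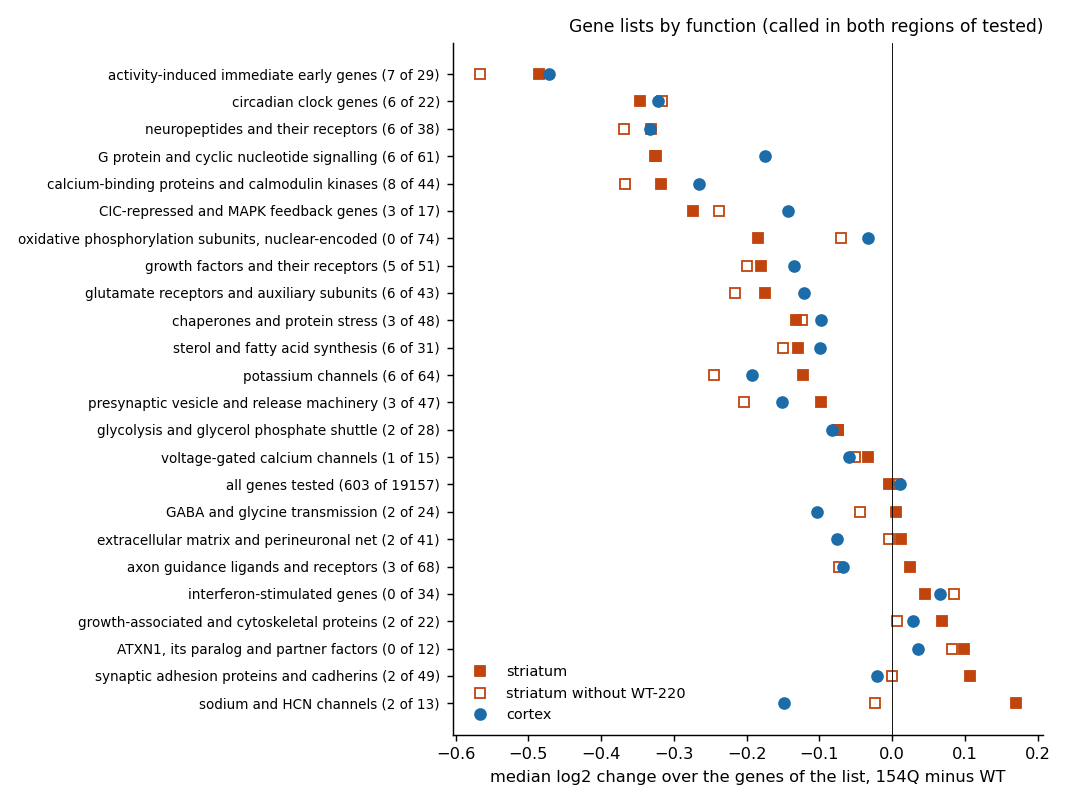
Median log2 change (154Q minus WT) of the tested genes of each of 23 lists and of all genes tested, in the striatum (filled squares), the striatum without WT-220 (open squares), and the cortex (circles), with the number called in both regions beside each name. Activity-induced genes have the lowest medians in both regions, and the medians of all genes are -0.00415 (striatum) and 0.0102 (cortex).

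Astrocyte and interneuron markers were lower in the 154Q libraries. Of 15 astrocyte markers 4 fell in both regions (26.7%), namely *Glul* (-0.37 and -0.29), *Aqp4* (-0.32 and -0.39), *Gja1* (-0.24 and -0.21), and *Gfap* (-0.42 and -0.56), and their summed level was 4474 to 4885 CPM in the 154Q and 5600 to 6037 in the WT striata, and 4971 to 5591 and 6109 to 6553 in the cortices. Of 18 interneuron markers 4 fell in both (22.2%), *Sst*, *Npy*, *Cort*, and *Gad1*, the last not in the striatum without WT-220. Over all genes tested 2.17% fell in both. Without striatal WT-220, 10 astrocyte, 5 interneuron, and 4 cortical excitatory markers passed in both, beside 7.02% of all genes. Of 18 myelin genes 14 fell in the striatum and none passed in the cortex, beside 7.78% and 3.94% of all genes tested. Without striatal WT-220, 9 fell in the striatum, 5 in the cortex, and 4 in both, beside 1662, 1174, and 932 of 19382 genes. The summed myelin level was 8069 to 9729 CPM in the 154Q striata, 11013 to 11977 in 3 WT striata, and 18290 in WT-220. The cortical excitatory markers had 1 member called in both, *Lamp5*, and summed to 2256 to 2695 CPM in the 154Q striata, 2913 to 3117 in the WT striata other than WT-220, 2953 to 3165 in the 154Q cortices, and 3387 to 3798 in the WT cortices. Summed blood markers were 59.1 to 82.4 CPM in the 154Q and 110 to 188 in the WT striata, and overlapped in the cortex. Summed hippocampal and thalamic markers were 35.2 to 42.2 CPM in the 154Q and 46.5 to 85.8 in the WT striata, and 42.4 to 51.7 and 55.7 to 84.8 in the cortices. Of 16 microglia markers and 8 markers of oligodendrocyte precursors none passed in the cortex or in both. In the striatum 3 microglia markers and 1 precursor marker fell, and without WT-220 0 and 1 did. In bulk tissue fewer cells of a type and less RNA per cell cannot be told apart, and the part of these markers in the lists above was not tested.

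Genes of spiny projection neurons had larger estimates of change in the striatum than in the cortex. Of 23 markers 17 fell in the striatum, beside 7.78% of all genes tested. Of these, 2 (*Scn4b* and *Pdyn*) also fell in the cortex, 8.7% of the list beside 2.17% of all genes. An unadjusted interaction p value under 0.05 was found for 10 markers, all with the larger change in the striatum, beside 4.38% of all genes. None of the 10 passed after adjustment. Of all 840 genes with such a p value, 661 had the larger change in the striatum. Of the 61 genes of G protein and cyclic nucleotide signalling 14 had such a p value, again all larger in the striatum, and 7 of the 14 are also on the spiny neuron list. The 23 markers had a median striatal change of -1.07, or -0.63 without WT-220, and a median cortical change of -0.14. Without WT-220, 13 markers fell and 1 rose in the striatum, beside 1662 and 986 of 19382 genes. An unadjusted interaction p value under 0.05 was then found for 10 markers, 8 of them with the larger change in the striatum, beside 3.38% of all genes. Of the 655 genes in that 3.38%, 500 had the larger change in the striatum, so the direction of the 10 markers is near that of all such genes.

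The values by library show how the striatal change is built. *Scn4b*, an auxiliary sodium channel subunit abundant in spiny neurons, read 585, 475, 1137, and 469.9 CPM in the WT and 121, 76.5, 122, and 131 in the 154Q striata, and 99.3, 55.3, 75.8, and 92.6 in the WT and 23.9, 24.1, 24.8, and 37.04 in the 154Q cortices. It fell in both regions, with log2 changes of -2.57 ± 0.28 (SE) in the striatum and -1.55 ± 0.27 in the cortex (edgeR adjusted p = 2.84e-05 and 0.0037), and with a striatal change of -2.18 without WT-220. *Penk*, the enkephalin precursor of the indirect pathway, read 373, 296, 1275, and 293 CPM in the WT and 117, 61.8, 133, and 125 in the 154Q striata, and 35.2, 23.01, 36.4, and 42.8 and 18.8, 18.002, 14.2, and 19.6 in the cortices. Its striatal change of -2.36 became -1.56 without WT-220, and its cortical change was -0.96, with an edgeR adjusted p of 0.222 in the 16-library fit and 0.00786 without striatal WT-220. *Ppp1r1b*, which encodes the dopamine-regulated phosphatase inhibitor DARPP-32, read 779, 634, 2093, and 601.8 CPM in the WT and 355, 196, 339, and 402 in the 154Q striata, 90.96, 72.1, 82.3, and 87.5 and 37.97, 39.5, 54.2, and 40.02 in the cortices, with a cortical change of -0.95 that passed without striatal WT-220 (edgeR adjusted p = 0.00175) and not with it (0.12).

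The dopamine and adenosine receptors were low in the cortex. *Drd1* read 90.8, 66.5, 207.3, and 75.2 CPM in the WT and 43.9, 31.1, 46.3, and 49.8 in the 154Q striata, and 7.62 to 11.1 and 8.53 to 9.99 in the cortices. *Adora2a* read 158, 113, 397, and 109.5 CPM and 56.6, 32.8, 54.8, and 59.6 in the striata and at most 6.76 in the cortices. *Adcy5*, the main striatal adenylyl cyclase, read 636, 485, 1126, and 496 CPM and 357, 263, 368, and 349 in the striata, and 153 to 175 and 169 to 213 in the WT and 154Q cortices. Its regional difference over all 16 libraries was 1.20 (95% interval 0.60 to 1.80), with an unadjusted interaction p of 0.000585 from edgeR and an adjusted p of 0.934. These *Adcy5* values include striatal WT-220, which at 1126 CPM lay far above the other WT striata. Other spiny neuron genes did not follow. *Tac1*, the substance P precursor of the direct pathway, read 79.7, 58.99, 258, and 66.8 CPM in the WT and 88.99, 47.99, 93.6, and 97.02 in the 154Q striata, so that 3 of the 4 154Q libraries lay above the WT libraries other than WT-220. *Ebf1*, a transcription factor of the direct pathway, read 6.505, 5.93, 11.6, and 4.92 CPM and 7.995, 6.29, 9.71, and 9.02. Without WT-220 the striatal changes of *Tac1* and *Ebf1* were 0.26 and 0.50, against -0.86 for *Drd1*, -1.32 for *Adora2a*, and -1.56 for *Penk* in the same libraries. Differences among these genes, which were picked after their values were seen, were not tested. The part of the dissection in their fall was not tested.

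**Figure D5:**
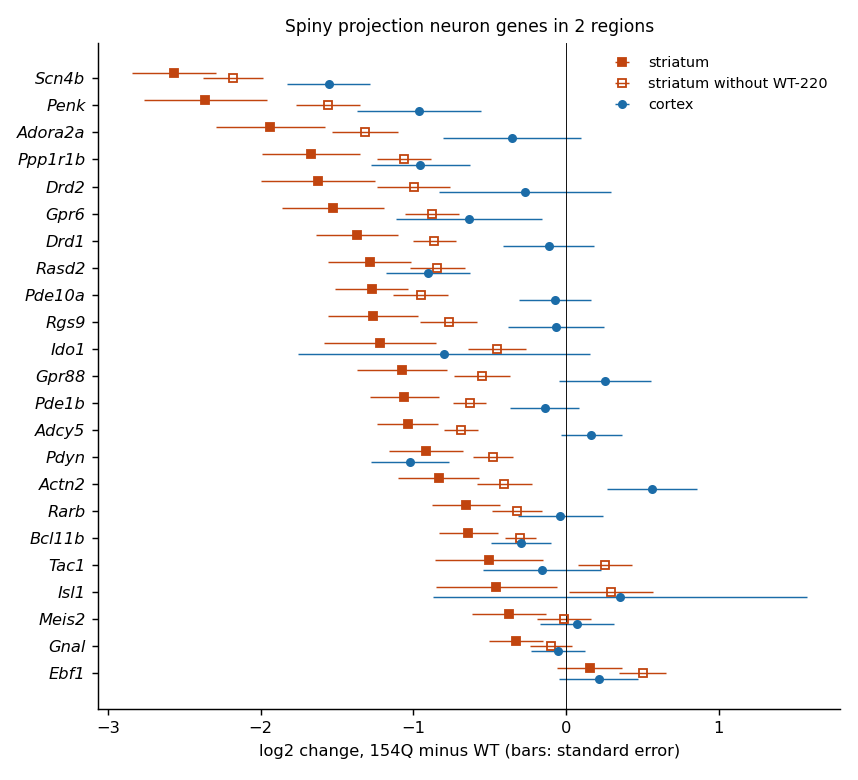
Log2 change (154Q minus WT, with standard errors) of 23 spiny projection neuron genes in the striatum with all 8 libraries (filled squares), in the striatum without WT-220 (open squares), and in the cortex (circles). Leaving out WT-220 moves all 23 striatal values upward, and those of *Tac1*, *Isl1*, and *Ebf1* then lie above 0.

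Among the 603 shared genes, the 34 with an unadjusted interaction p value under 0.05 held 32 with the larger change in the striatum and 2 with the larger change in the cortex. Over all 840 genes with such a p value these numbers were 661 and 179. The 2 shared genes larger in the cortex are named here after their values were seen. *Onecut2*, a homeobox transcription factor, read 6.297, 4.88, 9.896, and 5.13 CPM in the WT and 18.1, 13.6, 13.1, and 12.7 in the 154Q striata, and 2.21, 1.29, 1.79, and 1.67 and 11.97, 11.5, 8.397, and 5.83 in the cortices. It rose by 1.11 and 2.44, with a difference of 1.33 (95% interval 0.57 to 2.10) and an unadjusted p of 0.00187. *Ankrd63* read 84.95, 58.2, 147, and 63.6 CPM in the WT and 43.9, 26.8, 53.4, and 49.3 in the 154Q striata, and 25.8, 28.1, 25.2, and 22.03 and 8.43, 3.93, 6.37, and 6.41 in the cortices, with changes of -1.04 (striatum) and -2.01 (cortex). Both differences have an edgeR adjusted p of 0.934.

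The interaction genes of DESeq2 were also named after their values were seen. They were *Ddit4l* (above), *Acvrl1*, *Cd72*, *Ryr1*, *Itga9*, and *Gm26645*, and all 6 fell in the striatum by more than they changed in the cortex. *Acvrl1*, a receptor of the BMP pathway known from blood vessels, read 27.8, 25.9, 51.9, and 26.02 CPM in the WT and 14.7, 12.9, 13.2, and 11.7 in the 154Q striata, and 13.2, 13.7, 13.6, and 14.6 and 12.5, 12.9, 10.6, and 12.4 in the cortices. The groups did not overlap in either region, but they lay much closer in the cortex, with a regional difference of 1.14 (95% interval 0.61 to 1.67). *Acvrl1* was the 1 gene that passed the interaction in edgeR without striatal WT-220 (adjusted p = 0.0199). *Ryr1*, a calcium release channel, read 44.5, 37.03, 50.1, and 34.04 CPM in the WT and 11.4, 9.22, 10.7, and 9.35 in the 154Q striata, and 27.5, 16.7, 14.4, and 19.8 and 19.1, 16.7, 7.41, and 10.5 in the cortices, where the groups overlapped. *Itga9*, an integrin subunit, changed by -1.34 (striatum) and -0.23 (cortex), and *Cd72* and *Gm26645* were at most 0.965 CPM in every cortical library. No gene passed the interaction with a larger change in the cortex in any of the fits made here.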

How the data were processed

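PolyA RNA-seq libraries of striatum and cortex were aligned by the authors with STAR 2.7.2d after trimming with Trimmomatic 0.36 (submitters' processing notes), to GRCm38 with GENCODE genes, and the deposited files hold read counts per gene, of which the unstranded column was used (54232 genes, raw counts, not normalized). Between 78.7% and 81.2% of pairs were counted; overlapping genes and antisense partners cannot be told apart. Gene symbols and positions are from GENCODE M21. Here, genes kept by filterByExpr were scaled by TMM and fitted with 1 mean per region and genotype in edgeR 4.0.16 (R 4.3.3), with quasi-likelihood tests, Benjamini-Hochberg adjustment over all 19157 genes, and an adjusted p threshold of 0.05. DESeq2 1.42.0 and limma 3.58.1 served as alternatives, and the fits were tested on simulated counts. The interaction is the cortical minus the striatal change.

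Named genes are the 10 raised and 10 lowered genes called in both regions with the lowest value of the larger regional p and with 154Q libraries outside the WT range, up to 5 shared members per list and direction, and *Atxn1*, *Xist*, *Ddx3y*, and *Ttr* as checks. The rule's places for genes called in the interaction stayed empty. Other genes are named as members of a described list or as said in the text. Members and lists were chosen with earlier results of these data known.

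By their labels both libraries of a mouse come from the same animal, which pairs them across regions. The checks above put this in doubt for WT-221 and 154Q-76. Deviations from the group means correlated by -0.11 to 0.27 within a mouse, and the correlation was below 0 for these 2. For 154Q-69 it was 0.089, and its striatal library correlated more with the cortical library of 154Q-71.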

Additional observations from a re-analysis of the deposited data

Results flagged for a closer look

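Single libraries lay apart from the other 3 of their group in 10 of 140 groups, by the gap to the nearest library relative to the group's range on the log2 scale (Dixon's test at the 95% level, which by chance marks about 1 in 20 groups). The striatal library of WT-220 read 64.0 CPM of *Atxn1*, above the others, held the lowest summed cortical excitatory markers of its group (1106 CPM), and the highest summed myelin genes (18290 CPM). The striatal library of 154Q-71 had the lowest sum of spiny projection neuron markers, 2011 CPM. In the striatal library of 154Q-76 *Pnck* read 101 CPM, the highest of its group, and the choroid plexus and ependyma markers summed to 2496 CPM.

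*Ddx3y*, which lies on the Y chromosome, read 0.955 CPM in the striatal and 0.700 CPM in the cortical library of 154Q-75, and 0.897 CPM in the cortical library labelled WT-221, below the other libraries of each group. Low *Ddx3y* in both regions marks 154Q-75 as female, so sex differed within the 154Q group. With the *Xist* level as a covariate 2088 genes passed in the striatum, 763 in the cortex, 592 in both, and 0 in the interaction. In the striatal library of WT-77 it read 61.2 CPM, also the lowest of its group.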

How the results depend on the processing

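All 603 shared genes, and every gene called in both regions under each alternative but 1, changed in the same direction in both; without the cortical library of WT-70, 376 of 377 did. With the mouse as a replicate block the interaction stayed at 0 genes in edgeR and in limma-voom, and in limma-voom 2537 genes were called in the striatum (2425 shared with the 16-library fit), 711 in the cortex (689), 2898 on average (2896), and 571 in both regions (555).

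DESeq2, run without the filter on low counts, called 6 genes in the interaction and 1193 in the cortex, with a Pearson r of 0.1517 between regional changes. Without that filter r was 0.1092 in edgeR. Both r values take in genes with low counts outside the 19157, so they cannot be set beside the r of the filtered genes. With only WT-70 and WT-77 as controls, 1194 genes passed in the striatum and 2600 on average (r = 0.5123). Separate fits gave 973 in the striatum and 1495 in the cortex (r = 0.6436). Without cortical WT-221 and 154Q-76, 346 passed in the cortex and 303 in both (r = 0.5435). Chosen after seeing the data, a limma fit with a spread for each region gave 1643 in the striatum and 1351 in the cortex, and without striatal WT-220 also 1 in the interaction, 2603 in the striatum, 1756 in the cortex, and 1343 in both (r = 0.6099). Separate fits without striatal WT-220 gave 2236 in the striatum, 1495 in the cortex and 1065 in both (r = 0.6918), and leaving out striatal WT-220, cortical WT-221, and cortical 154Q-76 together gave 1257 in the cortex and 1011 in both. The cause of each move was not tested.

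Leaving out 1 library at a time gave 1781 to 2881 genes in the striatum, 411 to 1827 in the cortex, 3232 to 4802 on average, 365 to 1361 in both, 0 to 1 in the interaction, and r from 0.5015 to 0.6131. Counts moved by over 1.5 times without striatal WT-220 (1827 in the cortex, 1361 in both), cortical WT-221 (427 and 365), cortical WT-70 (459 and 377), cortical 154Q-69 (411 and 367), and cortical WT-220 (479 in the cortex). Of 5460 values, under alternatives, of named genes and regions called in the 16-library fit, 5190 stayed called and 270 did not, and of 1980 such values of other genes described 124 did not; none changed direction.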

Other observations

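Further genes called in both regions are described here. *Wt1* and *Arpp19* belong to no list above and were picked after their values were seen. *Wt1*, a zinc finger transcription factor gene, read 0.130, 0.311, 0.0927, and 0.295 CPM in the WT striata and 3.25, 2.01, 3.91, and 2.73 in the 154Q striata, and 0.174, 0.215, 0.265, and 0.291 CPM in the WT and 0.934, 1.32, 1.93, and 0.634 in the 154Q cortices. It rose by 3.94 in the striatum and 2.32 in the cortex on the log2 scale, with groups that did not overlap in either region. *Arpp19*, an inhibitor of protein phosphatase 2A, changed by -1.03 and -0.63. *Ramp3*, a partner of the calcitonin receptor family, changed by -1.19 and -0.69. It is the 1 member of the hippocampal and thalamic markers above that was called in both regions.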
